A study of Mus musculus with 12 samples.

Results

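Transcripts of 10 genes that carry, make or break down heme were measured in whole kidney tissue of 12 mice: the heme transporters *Slc48a1*, *Flvcr1* and *Abcb6*, the heme binder *Hebp1*, the synthesis enzymes *Alad* and *Fech*, and the breakdown enzymes *Hmox1*, *Hmox2*, *Blvra* and *Blvrb*. They were 10 of the 22053 rows of the deposited table, 9 found by gene name and 1, *Flvcr1*, by its identifier (ENSMUSG00000066595), since the table lists it under the older symbol Mfsd7b. All 10 passed the filter on low values and were among the 13148 genes tested. The mice were wild-type C57BL/6, 4 in each of 3 groups. CKD mice ate a 0.2% adenine diet from 8 to 16 weeks of age and had weekly i.p. PBS, CKD+Fe mice ate the same diet and were injected i.p. each week with 0.5 g/kg of iron dextran, and control mice ate the diet without adenine and had PBS. Dietary adenine injures the tubules and leads to kidney fibrosis and anemia, so CKD here stands for this model of chronic kidney disease. Each mouse gave 1 library, and mice are numbered within their group.

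Heme is built from glycine and succinyl-CoA in a chain of steps that begins and ends in the mitochondrion, with ALAD acting in the cytosol and ferrochelatase (*Fech*) inserting the iron at the end. Heme oxygenase, inducible (*Hmox1*) or constitutive (*Hmox2*), opens the ring and releases iron, carbon monoxide and biliverdin, which the biliverdin reductases convert to bilirubin. Proximal tubule cells take up filtered heme proteins, and macrophages take up heme from senescent red cells and debris, so both cell types handle heme in the kidney.

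The tissue itself differed widely between groups. The FPKM (fragments counted for a transcript, divided by its length and by the mapped reads of the library) of 12 proximal tubule markers summed to 73370 to 97320 in control, 1970 to 9282 in CKD and 3019 to 12570 in CKD+Fe mice, and those of 12 macrophage markers to 127.8 to 265.1, 1880 to 3928 and 1756 to 3900. *Kap* made up most of the tubule sum, and the other 11 markers summed to 7429 to 9586, 944.2 to 1883 and 1029 to 2832 FPKM, with *Slc5a12* at 36.75 in control and 36.6 FPKM in CKD mice on average. Summed FPKM of 8 erythroid markers overlapped between groups, at 28.76 to 120.8, 16.72 to 118.5 and 24.0 to 53.07, as did those of 8 urothelial markers, at 1.893 to 140.4, 25.13 to 71.19 and 43.99 to 60.97. No marker was at 0 in every mouse of a group. The sums of 7 markers of other nephron segments were 1920 to 3309, 2629 to 3667 and 2242 to 3450. In whole tissue, fewer cells of a type and less RNA per cell cannot be told apart. The median gene tested was higher in CKD, with a log2 difference from control of 0.502. Total FPKM was lower, at 503437.9 to 603556.1 in CKD against 607950.8 to 707843.2 in control mice. *Kap* alone held 0.188% to 1.252% of the total in CKD and 10.594% to 12.699% in control mice. The median log2 difference became -0.026 after median-of-ratios rescaling (dividing each mouse by its median ratio to a common reference). Changes below are given as deposited and, where it matters, after this rescaling. Control mouse 3, CKD mouse 3 and CKD+Fe mouse 1 stood apart, with 596, 806 and 442 genes at least 2-fold away from the other mice of their group, against 42 to 225 in the other 9 mice.

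Most of the 10 genes were lower in CKD than in control kidneys, and 1 was much higher. *Flvcr1*, which exports heme from the cell, rose to 4.764 times its control mean, while *Hebp1*, *Abcb6*, *Alad*, *Blvra*, *Fech* and *Slc48a1* fell to between 54.6% and 80.8% of theirs. *Hmox1*, *Hmox2* and *Blvrb* did not pass the test. In all, 1 gene was higher and 6 were lower at an adjusted p under 0.05 (limma, adjusted over all genes tested), where of all genes tested 54.6% were higher and 13.3% lower. The median log2 difference of the 10 genes was -0.44, against 0.502 for all genes. After rescaling, 1 was higher and 8 were lower, with *Hmox1* and *Hmox2* joining the lower genes, and over all genes 27.2% were then higher and 31.0% lower.

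**Figure D1:**
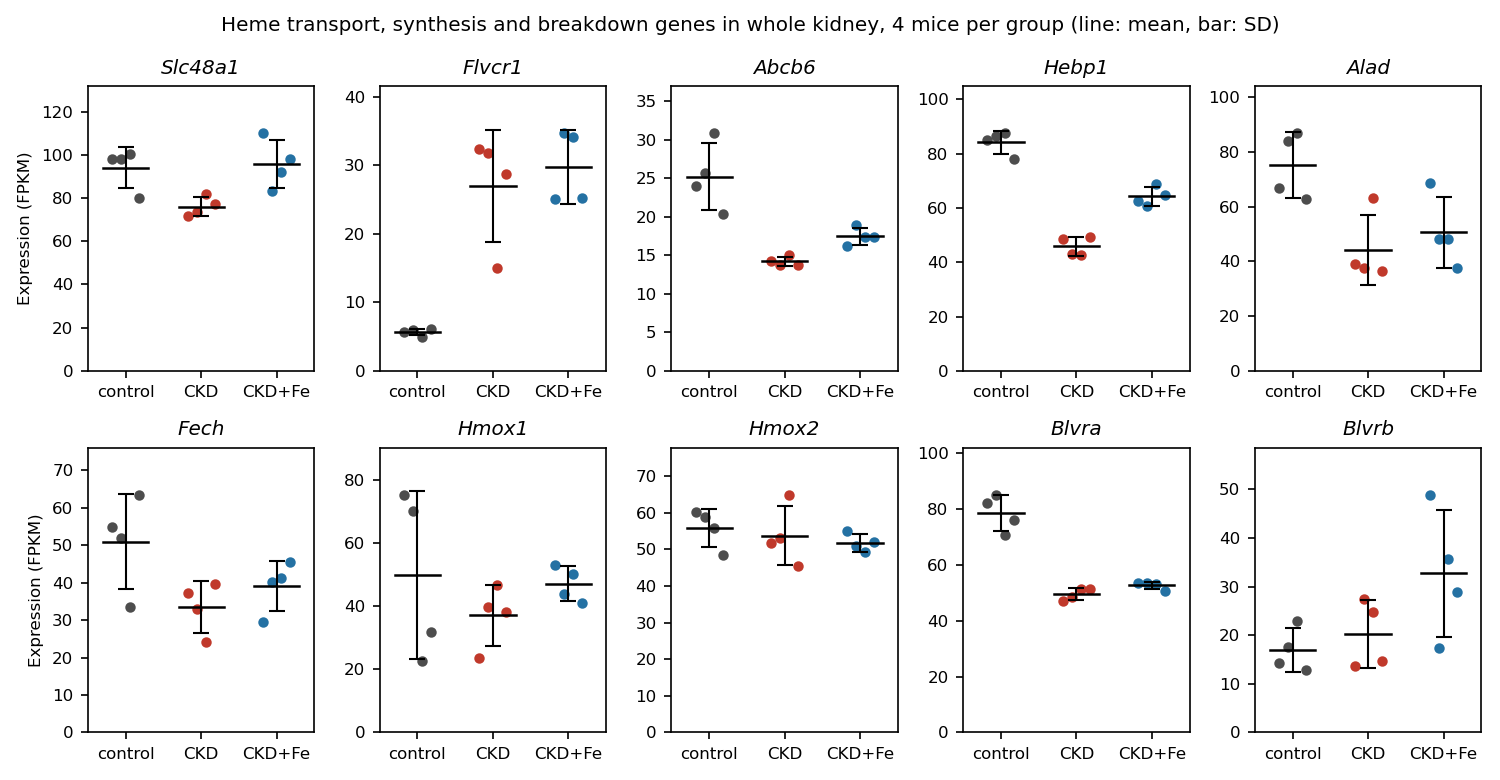
Expression of the 10 genes in each mouse, in FPKM on axes that start at 0, with 1 point per mouse, a line at the mean of the 4 mice and a bar of 1 SD to each side. *Flvcr1* is at 4.974 to 6.055 FPKM in control and 15.04 to 32.44 FPKM in CKD mice, and *Hebp1*, *Abcb6* and *Blvra* of every CKD mouse lie under every control mouse.

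Among the transporters, *Flvcr1* had the lowest control level, at 5.729, 5.926, 4.974 and 6.055 FPKM. In CKD mice it was at 32.44, 31.8, 15.04 and 28.79 FPKM, and in CKD+Fe mice at 25.04, 34.66, 34.15 and 25.23 FPKM. Every adenine-fed mouse was above every control (every CKD mouse was above control for 44.6% of all genes), and CKD mouse 3 was well under the other CKD mice. The log2 difference of CKD from control was 2.02 (SE 0.213, adjusted p = 4.13e-06, limma, n = 4 per group; exact permutation p = 0.0286, the smallest that 4 against 4 allows). It was 2.21 without the 3 mice that stood apart and 1.46 after rescaling, so *Flvcr1* was higher under each scaling tried. With iron the log2 difference from CKD was 0.18 (95% interval -0.28 to 0.64, adjusted p = 0.982), and it was -0.07 without CKD mouse 3.

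*Abcb6*, an ABC transporter of porphyrins found in mitochondrial and other membranes, was at 23.98, 25.72, 30.8 and 20.32 FPKM in control mice and at 14.26, 13.77, 15.0 and 13.75 FPKM in CKD mice. The groups did not overlap, as for *Hebp1* and *Blvra* (every mouse lower in 10.5% of all genes), and the CKD mice lay within a narrow range. CKD was lower by a log2 difference of -0.77 (SE 0.128, adjusted p = 0.000155). With iron it was at 16.21, 18.91, 17.36 and 17.31 FPKM, every mouse above every CKD mouse and under every control, though the log2 difference from CKD of 0.28 did not pass (adjusted p = 0.828, limma).

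*Slc48a1*, which encodes the transporter HRG1 that moves heme out of the phagolysosome, was among the more abundant of the 10, at 98.22, 97.95, 100.2 and 80.06 FPKM in control mice. It was at 71.62, 73.69, 81.69 and 77.09 FPKM in CKD mice and at 109.9, 83.49, 92.11 and 98.03 FPKM in CKD+Fe mice. The fourth control lay among the CKD mice, and the lowest CKD+Fe mouse exceeded the highest CKD mouse. The fall in CKD was small and close to the threshold, with a log2 difference of -0.30 (SE 0.121, adjusted p = 0.0408), and leaving out 1 mouse at a time ended the call in 8 of 12 fits, those without control mouse 1, 2 or 3, CKD mouse 1, 2 or 4, or CKD+Fe mouse 3 or 4 (adjusted p up to 0.0972, limma). Quantile normalization ended it too (-0.19, adjusted p = 0.171, limma). The difference of CKD+Fe from CKD was 0.33 on the log2 scale (95% interval 0.06 to 0.59) with an adjusted p of 0.705 (limma).

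*Hebp1*, a small cytosolic protein that binds heme and porphyrins, varied little within groups. It was at 84.93, 86.34, 87.39 and 77.82 FPKM in control, 48.46, 43.17, 42.55 and 49.42 FPKM in CKD, and 62.43, 60.87, 68.87 and 64.77 FPKM in CKD+Fe mice. The groups formed 3 bands without overlap, with CKD+Fe between CKD and control. The fall in CKD was -0.86 on the log2 scale (SE 0.104, adjusted p = 1.22e-05) and -1.47 after rescaling. The level of CKD+Fe was 1.399 times that of CKD, a log2 difference of 0.48 (95% interval 0.25 to 0.70) whose p was 0.000466 in limma's fit before adjustment and 0.254 after it. Over the alternatives that kept all mice the adjusted p of this difference ran from 0.0326, with weights for the quality of each library, to 0.673, with CKD and CKD+Fe fitted alone (limma).

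The promoters of *Flvcr1*, *Hebp1*, *Abcb6* and *Blvra*, the genes whose CKD and control mice did not overlap, are shown as sequence ahead of the start site. Their direction is not shared, as *Flvcr1* was higher and *Hebp1*, *Abcb6* and *Blvra* were lower in CKD. Each is the 250 bases before a RefSeq transcript start on GRCm38.p6, written 5′ to 3′ along the gene's strand, from chr1:191026191-191026440 (minus strand), chr6:135168216-135168465 (minus), chr1:75180393-75180642 (minus) and chr2:127070407-127070656 (plus). Capitals mark a match on either strand to 1 of 4 searched motifs.
Flvcr1: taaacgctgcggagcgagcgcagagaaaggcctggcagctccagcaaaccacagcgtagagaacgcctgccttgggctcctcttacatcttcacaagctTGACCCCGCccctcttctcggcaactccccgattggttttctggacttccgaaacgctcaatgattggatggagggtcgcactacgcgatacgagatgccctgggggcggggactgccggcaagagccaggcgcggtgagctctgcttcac
Hebp1: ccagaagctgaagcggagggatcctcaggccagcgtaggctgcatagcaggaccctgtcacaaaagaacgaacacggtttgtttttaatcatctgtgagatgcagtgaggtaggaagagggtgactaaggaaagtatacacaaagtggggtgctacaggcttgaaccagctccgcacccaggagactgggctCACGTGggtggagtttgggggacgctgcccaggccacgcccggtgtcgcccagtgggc
Abcb6: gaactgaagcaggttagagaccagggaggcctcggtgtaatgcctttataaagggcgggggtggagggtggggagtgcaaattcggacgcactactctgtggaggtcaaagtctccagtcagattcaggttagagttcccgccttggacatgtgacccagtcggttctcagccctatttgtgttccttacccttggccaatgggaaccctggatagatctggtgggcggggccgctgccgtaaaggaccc
Blvra: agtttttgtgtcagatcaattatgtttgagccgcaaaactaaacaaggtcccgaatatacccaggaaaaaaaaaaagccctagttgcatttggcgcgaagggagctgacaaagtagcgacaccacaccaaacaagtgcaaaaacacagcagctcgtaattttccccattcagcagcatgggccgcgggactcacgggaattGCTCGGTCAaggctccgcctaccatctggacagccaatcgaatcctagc
The core of the antioxidant response element (TGACNNNGC), the site of NRF2 and BACH1, was found 151 bases before the start of *Flvcr1*, which rose, and on the other strand 49 bases before that of *Blvra*, which fell. This motif was present in 10.2% of 32851 RefSeq promoter windows of the same length. The E-box CACGTG, in 6.02% of windows, was found 58 bases before the start of *Hebp1* and 105 and 28 bases before 2 starts of *Alad*. The AP-1 site TGANTCA (6.75% of windows) and the GATA site AGATAA (9.99%) were in none of the 11 windows of the 7 genes searched. The *Abcb6* window held none of the 4 motifs. These are matches of letters, and binding of any factor was not measured. Windows of *Slc48a1*, *Hmox1* and *Fech* were not analysed here.

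Both synthesis enzymes fell in CKD. *Alad*, which joins 2 molecules of aminolevulinic acid into porphobilinogen, was at 67.01, 84.05, 86.79 and 62.96 FPKM in control, 39.0, 37.62, 63.14 and 36.56 FPKM in CKD, and 68.65, 48.14, 48.18 and 37.77 FPKM in CKD+Fe mice. CKD mouse 3 was just above the lowest control, and the other 3 CKD mice were well under all controls. CKD differed from control by -0.78 on the log2 scale (SE 0.205, adjusted p = 0.00423), and it was -0.89 without the 3 mice that stood apart (adjusted p = 0.000138, limma). Iron gave a log2 difference from CKD of 0.20 (95% interval -0.24 to 0.64).

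*Fech* was at 54.98, 51.91, 33.58 and 63.41 FPKM in control, 37.35, 32.88, 24.02 and 39.52 FPKM in CKD, and 29.62, 40.14, 41.29 and 45.41 FPKM in CKD+Fe mice. The third control mouse lay among the CKD mice. On the log2 scale CKD differed from control by -0.58 (SE 0.207, adjusted p = 0.0233), the call was lost when control mouse 1, 2 or 4 or CKD mouse 3 was left out (adjusted p up to 0.0738), and it held without the 3 mice that stood apart (-0.62, adjusted p = 0.000536, limma). With iron it differed from CKD by 0.23 on the log2 scale (95% interval -0.22 to 0.67).

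The mice that stood apart had the highest *Alad* and the lowest *Fech* of their group in each of the 3 groups. The ratio of *Alad* to *Fech* FPKM was accordingly 2.584 in control mouse 3, 2.628 in CKD mouse 3 and 2.318 in CKD+Fe mouse 1, and between 0.8317 and 1.619 in the other 9 mice. The summed erythroid markers of these mice were 120.8, 118.5 and 53.07 FPKM, each the highest of its group, while CKD mouse 2, with a ratio of 1.144, had a sum of 112.9. The part of erythroid RNA in the ratio was not tested. Between groups no difference of the ratio beyond the spread between mice was found (exact permutation p of 0.6 to 0.9714 over the 3 comparisons).

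**Figure D2:**
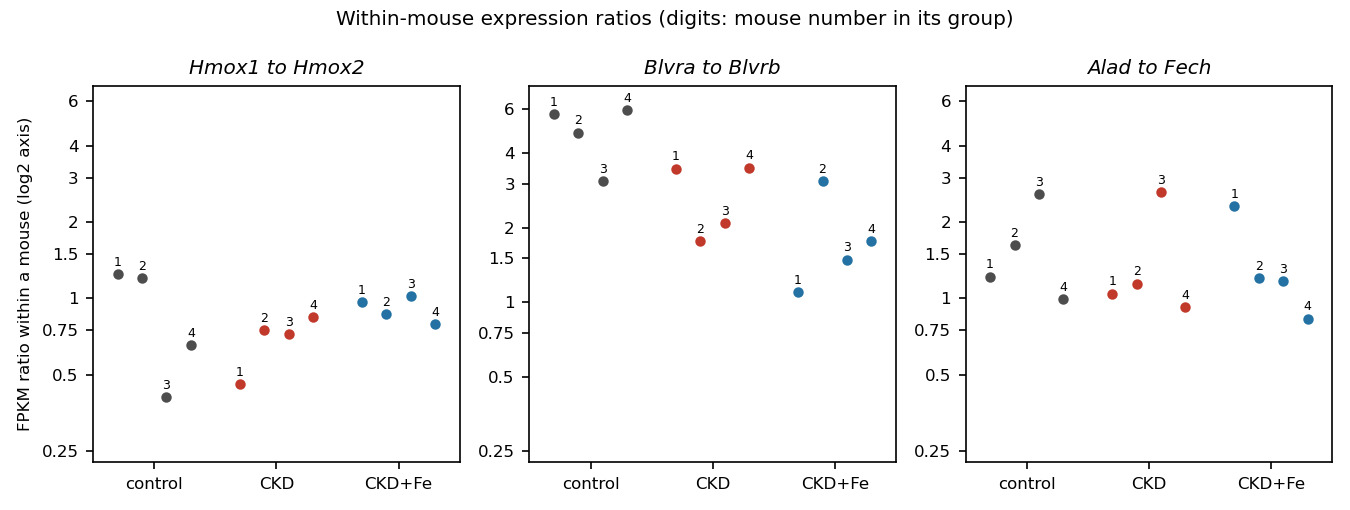
Ratio of the FPKM of a pair of genes within each mouse, on a log2 axis, for *Hmox1* to *Hmox2*, *Blvra* to *Blvrb* and *Alad* to *Fech*, with 1 point per mouse and its number above it. Control mouse 3, CKD mouse 3 and CKD+Fe mouse 1 have the highest *Alad* to *Fech* ratios, and the *Blvra* to *Blvrb* ratio runs from 3.074 to 5.962 in control and from 1.095 to 3.085 in CKD+Fe mice.

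Of the breakdown enzymes, *Hmox1* varied most between control mice, at 75.36, 70.43, 22.79 and 31.73 FPKM. CKD mice had 23.68, 39.81, 46.77 and 38.29 FPKM, and CKD+Fe mice had 53.12, 44.05, 50.36 and 41.13 FPKM. Controls thus split into a higher and a lower pair on either side of most adenine-fed mice, and the groups overlapped. The higher pair is labelled 012811 and 012822 and the lower pair 042301 and 042310, so each pair shares its leading digits. What these digits stand for is not given, and their part in the split was not tested. The log2 difference of CKD from control was -0.29 (SE 0.326, 95% interval -0.99 to 0.41, adjusted p = 0.439), an interval that spans both falls and rises. It passed as lower after rescaling (-0.90, adjusted p = 0.0356), with library weights (-0.89, adjusted p = 0.00857) and without the 3 mice that stood apart (-0.73, adjusted p = 0.0452, limma). With iron, the log2 difference from CKD was 0.37 (95% interval -0.33 to 1.07, adjusted p = 0.964).

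*Hmox2* differed least of the 10 between CKD and control as deposited, though not after rescaling, with a mean of 55.87 ± 5.211 FPKM for control, 53.8 ± 8.07 for CKD and 51.77 ± 2.421 for CKD+Fe mice (SD, n = 4 each). It ranged from 48.53 to 60.29, from 45.55 to 64.87 and from 49.28 to 54.99 FPKM. The log2 difference of CKD from control was -0.06 (95% interval -0.33 to 0.21, adjusted p = 0.681), and against the higher values of most other genes in CKD it was lower, at -0.67 after rescaling (adjusted p = 0.000849, limma). The *Hmox1* to *Hmox2* ratio was 0.4578, 0.7501, 0.721 and 0.8405 in CKD and 0.9659, 0.8671, 1.022 and 0.7909 in CKD+Fe mice, with exact permutation p = 0.0571 and 0.2571 after adjustment over the 9 ratio comparisons.

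The biliverdin reductases differed in pattern. *Blvra*, the main reductase of the adult, was at 82.23, 85.11, 70.6 and 76.1 FPKM in control, 47.08, 48.59, 51.54 and 51.49 FPKM in CKD, and 53.48, 53.68, 53.08 and 50.81 FPKM in CKD+Fe mice. Every adenine-fed mouse was under every control. The fall of *Blvra* in CKD was -0.65 on the log2 scale (SE 0.102, adjusted p = 0.000104) and the difference of CKD+Fe from CKD was 0.09 (95% interval -0.13 to 0.31).

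*Blvrb*, which acts on flavins and on the biliverdin isomers found in the fetus, was at 14.29, 17.6, 22.96 and 12.76 FPKM in control, 13.63, 27.52, 24.71 and 14.74 FPKM in CKD, and 48.84, 17.4, 35.74 and 28.82 FPKM in CKD+Fe mice. The groups overlapped, and the 3 highest values were all in CKD+Fe mice. The log2 difference of CKD from control was 0.21 (95% interval -0.43 to 0.85, adjusted p = 0.54) as deposited and turned to -0.38 after rescaling and -0.20 after quantile normalization. CKD+Fe was at 1.623 times CKD, a log2 difference of 0.64 (95% interval 0.00 to 1.28) with an adjusted p of 0.828 in limma.

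Within the CKD and CKD+Fe groups, the mice with more *Blvrb* were also those with more macrophage marker RNA, an order that did not hold in control mice. CKD mice 2 and 3 had *Blvrb* at 27.52 and 24.71 and summed macrophage markers of 3928 and 2995 FPKM, and CKD mice 1 and 4 had 13.63 and 14.74 with sums of 1880 and 1892. In CKD+Fe mice 1 to 4 *Blvrb* was at 48.84, 17.4, 35.74 and 28.82 with sums of 3900, 1756, 2857 and 2361 FPKM. In control mice 1 to 4 *Blvrb* was at 14.29, 17.6, 22.96 and 12.76 with sums of 130.3, 127.8, 265.1 and 174.9 FPKM, mouse 4 having the lowest *Blvrb* and the second highest sum. Summed erythroid markers followed a similar though not identical order to *Blvrb*. In mice 1 to 4 they were 16.72, 112.9, 118.5 and 18.66 FPKM in CKD and 53.07, 26.58, 34.82 and 24.0 FPKM in CKD+Fe. In control mice 1 to 4 they were 68.39, 50.51, 120.8 and 28.76 FPKM. Summed proximal tubule markers of CKD+Fe mice 1 to 4 were 3019, 12570, 4964 and 5491 FPKM, the reverse of the *Blvrb* order. In control mice they were 77150, 78420, 97320 and 73370 FPKM, the same order as *Blvrb*. In CKD mice they were 6520, 1970, 9282 and 2496 FPKM, in neither order. These comparisons of *Blvrb* with marker sums were not planned. The part of macrophage, erythroid or tubule RNA in the *Blvrb* values was not tested, and summed macrophage markers were of like range in both adenine-fed groups. The *Blvra* to *Blvrb* ratio of CKD+Fe mice was lower than that of control mice by 1.42 on the log2(FPKM + 1) scale (exact permutation p = 0.0286, adjusted p = 0.2571 over the 9 ratio comparisons). Without the added 1, CKD+Fe mouse 2 (3.085) lay just above control mouse 3 (3.074) and the exact permutation p was 0.0571.

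Iron dextran was given to ask whether iron therapy alters the course of CKD, and none of the 10 genes passed the test between CKD+Fe and CKD at an adjusted p under 0.05 (limma), as was true of all but 1 of the genes tested (0.00761% higher, 0.0% lower). The log2 differences were positive for 9 of the 10, *Hmox2* being the exception, with a median of 0.25 against -0.001 for all genes, of which 49.9% were positive. The means of all 12 proximal tubule markers were also higher in CKD+Fe than in CKD mice, as were 5 of 12 macrophage markers. So were 6 of 7 markers of other nephron segments and 7 of 8 urothelial markers, while 7 of 8 erythroid markers were lower. The summed markers of each list overlapped between these groups. Among the proximal tubule markers the relative difference was smallest for *Slc27a2* at 608.8 against 548.8 and *Slc5a12* at 41.23 against 36.6 FPKM. It was largest for *Miox* at 499.4 against 252.3 and *Slc22a8* at 89.96 against 38.41 FPKM. The part of tubule or other cell RNA in the members' differences was not tested. At an unadjusted p under 0.05, *Hebp1*, *Slc48a1*, *Abcb6* and *Blvrb* were higher, where 3.28% of all genes were higher and 2.73% lower. For *Hebp1*, *Slc48a1* and *Abcb6* the CKD+Fe mice lay wholly above the CKD mice, as for 1.35% of all genes. The study itself reported *Slc48a1* and *Hebp1* as induced by iron on these same samples, so their direction here is not independent evidence. Its methods state DESeq2 on counts with a cutoff of 0.5, unlike the test and threshold used here. At 0.5 in limma's fit, *Hebp1* would pass (adjusted p = 0.254) and *Slc48a1* would not (adjusted p = 0.705).

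Compared with control, CKD+Fe kidneys had *Flvcr1* and *Blvrb* higher and *Abcb6*, *Hebp1*, *Alad* and *Blvra* lower, 2 and 4 of the 10 genes, where 54.4% of all genes were higher and 11.0% lower. After rescaling, 1 was higher and 7 were lower, against 26.1% and 29.3% of all genes. *Flvcr1* was at 5.25 times its control mean, a log2 difference of 2.19 (adjusted p = 3.28e-06). *Hebp1* was at 76.4% (log2 difference -0.38, adjusted p = 0.0056), *Blvra* at 67.2% and *Abcb6* at 69.2% of control. *Slc48a1* had a log2 difference of 0.03 (95% interval -0.24 to 0.29), which was -0.58 after rescaling (adjusted p = 0.00127, limma). The *Blvrb* call (0.86, adjusted p = 0.0218) was lost without control mouse 1 or 4 or CKD+Fe mouse 1 or 3 (adjusted p up to 0.0754), after rescaling (0.27, adjusted p = 0.435) and after quantile normalization (0.51, adjusted p = 0.182, limma). That of *Alad* (-0.58, adjusted p = 0.0237) was lost without control mouse 2 or 3 or CKD+Fe mouse 4 (adjusted p up to 0.0814, limma). The comparisons share the same CKD and control mice, so opposite signs of a gene in CKD against control and CKD+Fe against CKD are not independent.

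**Figure D3:**
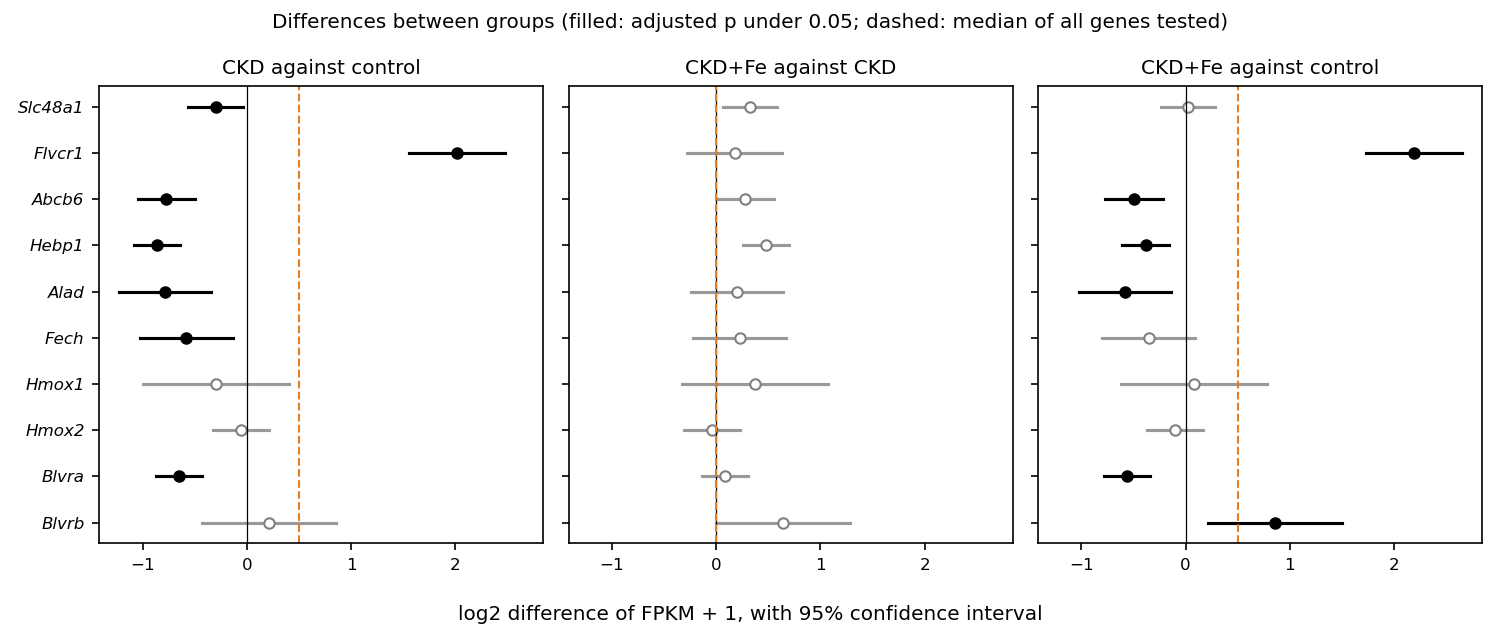
Log2 differences of FPKM + 1 for the 10 genes in the 3 comparisons, with 95% confidence intervals from limma, filled points for an adjusted p under 0.05 and a dashed line at the median of all genes tested. *Flvcr1* alone lies to the right of the dashed line in CKD against control, and all points of CKD+Fe against CKD are open.

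**Figure D4:**
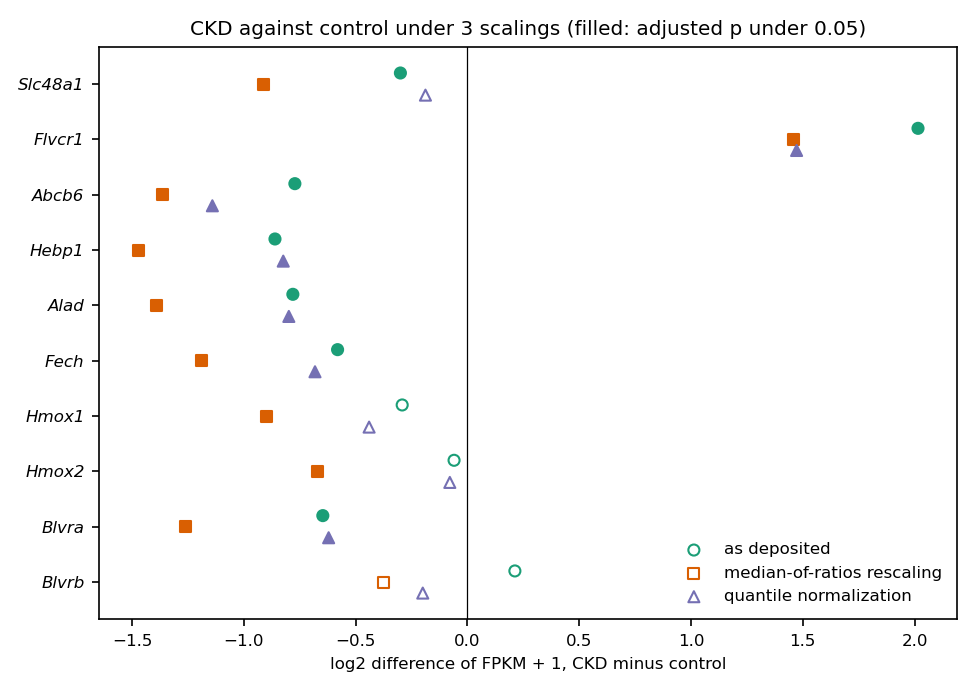
Log2 difference of CKD from control for each gene as deposited (circles), after median-of-ratios rescaling (squares) and after quantile normalization (triangles), filled where the adjusted p was under 0.05. *Flvcr1* is to the right of 0 and *Hebp1*, *Abcb6*, *Alad*, *Fech* and *Blvra* are filled and to the left under each scaling, while *Blvrb* changes side.

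The other genes of heme metabolism were taken from a list of 34, of which 32 were tested. *Alas2*, the erythroid first enzyme, was under the filter at 0.1018 to 1.829 FPKM, and *Abcb10* was not analysed here. In CKD against control 11 of the 32 rose, 13 fell and 8 did not pass, with a median log2 difference of -0.20, where 54.6% of all genes were higher and 13.3% lower with a median of 0.502. After rescaling 6 were higher and 20 lower, where 27.2% and 31.0% of all genes were. Some genes called higher as deposited, such as *Hpx* and *Cd163*, were under 1 FPKM in every control mouse. They passed the filter only through adenine-fed mice, so their direction is partly set by it.

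The rest of the synthesis chain was mostly lower in CKD. *Alas1*, the rate-limiting first enzyme outside red cells, fell from 135.5 ± 42.41 to 78.35 ± 23.11 FPKM (SD, n = 4; log2 difference -0.77, adjusted p = 0.0116). *Cpox*, which makes protoporphyrinogen, fell from 34.16 ± 9.241 to 13.24 ± 3.516 FPKM (log2 difference -1.30, adjusted p = 0.000157). *Uros*, which closes the porphyrin ring, fell to 50.3% of control, *Clpx*, a mitochondrial protease subunit that acts on ALAS, to 58.6% and *Tmem14c*, a porphyrinogen carrier, to 78.6%. For *Cpox*, *Uros* and *Clpx* every CKD mouse was under every control, as in 10.5% of all genes. *Alas1* and *Tmem14c* overlapped between the groups (exact permutation p = 0.0857 for each). *Alas1* of control mice 1 to 4 was at 173.6, 170.6, 103.7 and 94.22 FPKM, and of CKD mouse 3 at 111.5 FPKM. The *Tmem14c* call was lost after quantile normalization (-0.09, adjusted p = 0.502, limma). *Ppox*, the step before ferrochelatase, was higher at 149.1% of control (log2 difference 0.54, adjusted p = 0.00435), but after rescaling its difference was -0.05. *Urod*, *Slc25a38* and *Pgrmc1* had log2 differences of -0.23, -0.07 and -0.15 that did not pass, so 6 of 10 synthesis genes fell and 1 rose as deposited (13.3% and 54.6% of all genes). After rescaling these 3 genes were lower too, at -0.84, -0.66 and -0.77, and 9 of the 10 were lower and none higher (31.0% and 27.2% of all genes, limma).

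Genes of heme uptake and scavenging moved both ways. The largest rises were in *Hp*, whose product haptoglobin binds free hemoglobin (0.6846 to 24.6 FPKM, log2 difference 3.91, adjusted p = 5.61e-07), in *Lrp1*, the receptor of the hemopexin and heme complex (14.34 to 57.41 FPKM, log2 difference 1.89, adjusted p = 0.000148), and in *Cd163*, the macrophage receptor of the haptoglobin and hemoglobin complex (0.09337 to 3.262 FPKM, log2 difference 1.71, adjusted p = 0.00212). The largest falls were in the tubular endocytic receptor *Lrp2* (92.24 to 29.14 FPKM, log2 difference -1.64), in its partner *Amn* (67.12 to 27.25 FPKM, -1.44) and in *Slc46a1*, a folate carrier that also takes up heme (41.46 to 16.48 FPKM, -1.36), with adjusted p of 0.000545, 0.000692 and 0.000157. The CKD and control mice did not overlap for any of these 6 genes, where every CKD mouse was higher in 44.6% and lower in 10.5% of all genes. *Cd163* was at 0.04024 to 0.1391 FPKM in control and 0.4189 to 6.567 FPKM in CKD mice, and *Hp* at 0.1925 to 1.168 FPKM in control mice. Both passed the filter on low values only through adenine-fed mice, so their rises are partly set by that filter. *Cd163* marks macrophages, whose summed markers, *Cd163* not among them, were also higher. *Lrp2* is itself 1 of the 12 proximal tubule markers, and the sum without it and *Cubn* was 73210 to 97240 in control and 1940 to 9251 FPKM in CKD mice. The part of cell content in these values was not tested.

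Of 8 regulators, 4 were higher and 1 lower in CKD as deposited, near the shares of all genes (54.6% and 13.3%), and 1 was higher and 3 lower after rescaling (27.2% and 31.0%), their median log2 difference going from 0.63 to 0.05. *Nfe2l2*, which encodes NRF2, an activator of *Hmox1*, rose from 38.69 to 84.21 FPKM (2.177 times control, adjusted p = 1.38e-05; log2 difference 0.49 after rescaling, adjusted p = 0.00619). *Bach1*, the heme-sensing repressor of *Hmox1*, rose from 4.498 to 10.25 FPKM (2.279 times control, adjusted p = 0.00153), a difference that did not pass after rescaling (log2 difference 0.47, adjusted p = 0.0718, limma). These transcripts differed in CKD while *Hmox1* itself did not pass the test as deposited. These 2 were named after their values were seen.

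None of the 32 genes passed the test between CKD+Fe and CKD (lowest adjusted p 0.479, limma), before adjustment 4 were under 0.05, each with more transcript in the iron-treated mice, and 27 of the 32 log2 differences were positive with a median of 0.16. Of these 4, *Hpx* reached 1 FPKM only in CKD mouse 2 (1.062) and CKD+Fe mice 2, 3 and 4 (1.435, 1.429 and 1.413 FPKM). *Hpx* thus passed the filter on low values mainly through the iron-treated mice, so its direction is partly set by that filter. Of all genes 3.28% were higher and 2.73% lower before adjustment, and 49.9% were positive with a median of -0.001. All 10 synthesis genes were among the positive ones, at 0.04 to 0.39 on the log2 scale.

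**Figure D5:**
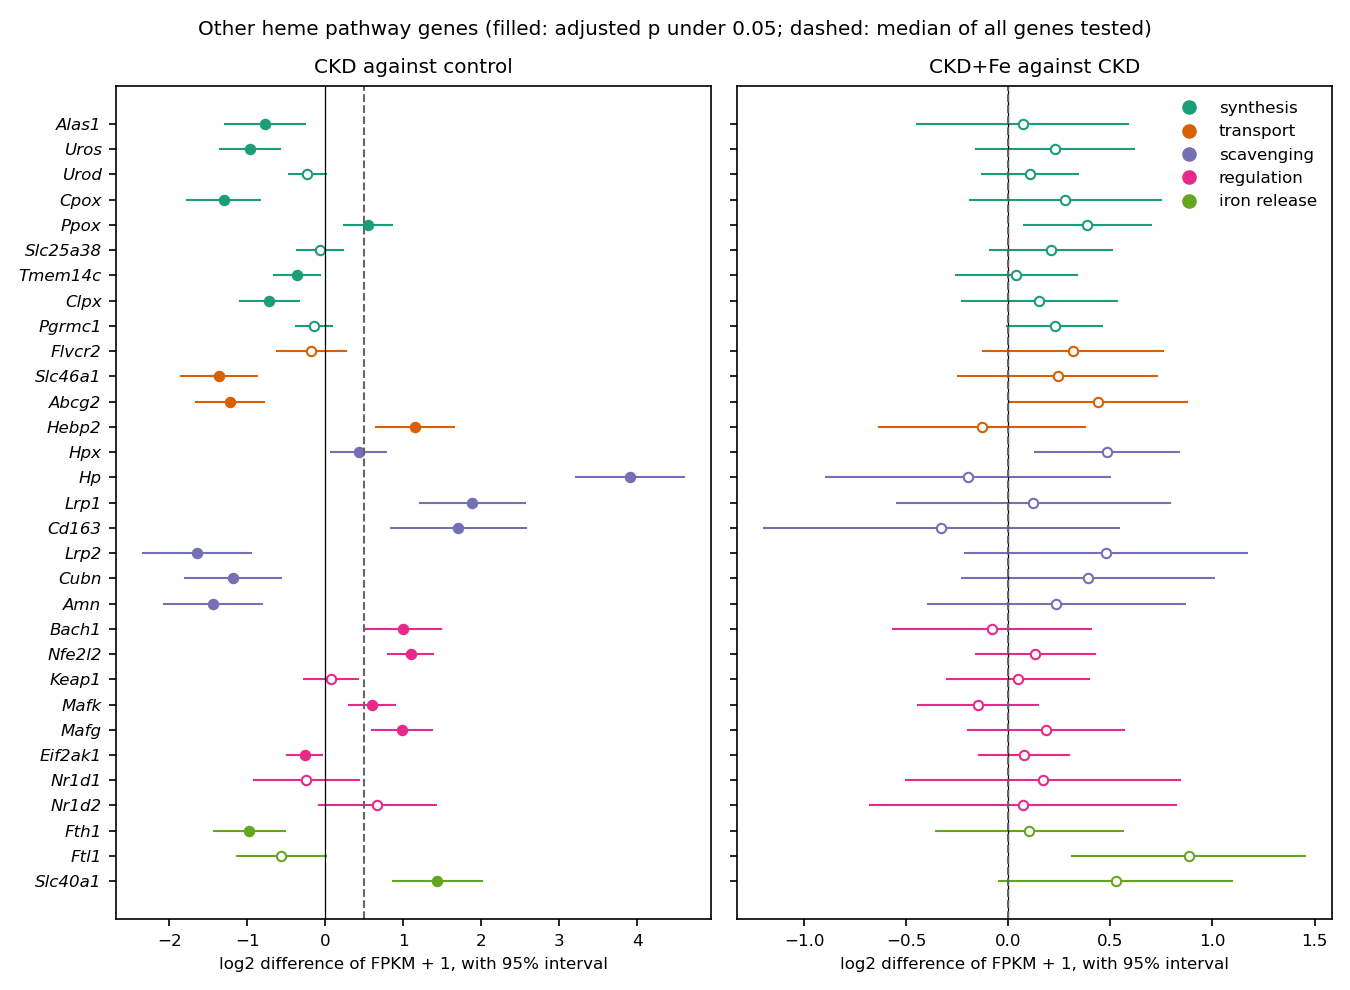
Log2 differences of FPKM + 1 for the other heme pathway genes that were tested and are reported here, in CKD against control (left) and CKD+Fe against CKD (right), with 95% confidence intervals, colored by role, filled for an adjusted p under 0.05, with a dashed line at the median of all genes tested. Synthesis genes lie mostly to the left of 0 in CKD, *Hp* is farthest to the right at 3.91, and every point of the right panel is open.

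In likeness of pattern over the 12 mice, measured as the root mean square difference of mean-centered log2(FPKM + 1), *Hebp1* and *Abcb6* were close to each other (0.154, *Abcb6* ranking 7th of 13131 genes from *Hebp1*, and *Hebp1* 96th from *Abcb6*). *Blvra* was at 0.18 from *Abcb6*. Among the closest genes of all were *Esd*, *Gpr137b* and *Phyhipl* for *Hebp1* (0.119 to 0.142), *Mrpl22*, *Ndufb3* and *Rnf5* for *Abcb6* (0.093 to 0.103), *Zfp830*, *Txndc17* and *Slc25a26* for *Blvra* (0.084 to 0.104), *Trpc1*, *Enpp3* and *Bnip3* for *Fech* (0.102 to 0.115), *Snx3* and *Ogfod3* for *Alad* (0.132 and 0.136), *Rab3a*, *Rhot2* and *Alg1* for *Slc48a1* (0.11 to 0.112), and *Txndc15* and *Atp5g2* for *Hmox2* (0.063 and 0.073). *Flvcr1*, *Hmox1* and *Blvrb* had no such near neighbor, their closest genes being *Ano9*, *Hjurp* and *Stk17b* (0.226 to 0.23), *Nkain1*, *Mettl1* and *Preb* (0.275 to 0.334), and *Mfng*, *Egfl8* and *Phf1* (0.252 to 0.268). *Alad* and *Fech*, an early and the last enzyme of one chain, were 0.547 apart, *Fech* ranking 3966th of 13131 genes from *Alad*. The values were centered but not scaled to a gene's own spread, so genes that vary more between mice tend to have larger distances. These are descriptions of 12 mice that share group, library and scaling.

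In control kidneys the order of mean levels per transcript length, from the highest, was *Slc48a1* (94.11 FPKM), *Hebp1* (84.12), *Blvra* (78.51), *Alad* (75.21), *Hmox2* (55.87), *Fech* (50.97), *Hmox1* (50.08), *Abcb6* (25.21), *Blvrb* (16.91) and *Flvcr1* (5.671). Neighbors in this order overlapped between mice, except *Alad* with *Hmox2* and *Blvrb* with *Flvcr1*. In CKD kidneys the mean of *Flvcr1*, at 27.02 FPKM, was above those of *Abcb6* at 14.2 and *Blvrb* at 20.15 FPKM. The CKD ranges of *Flvcr1* (15.04 to 32.44 FPKM) and *Blvrb* (13.63 to 27.52 FPKM) overlapped, and *Blvrb* was the higher in CKD mouse 3 only. The genes lie on GRCm38 at chr15:97784355-97792692 (*Slc48a1*), chr1:191005847-191026158 (*Flvcr1*), chr1:75171717-75180392 (*Abcb6*), chr6:135137522-135198022 (*Hebp1*), chr4:62509169-62519918 (*Alad*), chr18:64456550-64489066 (*Fech*), chr8:75093621-75100589 (*Hmox1*), chr16:4726361-4766742 (*Hmox2*), chr2:127070665-127097084 (*Blvra*) and chr7:27447978-27466144 (*Blvrb*). On the same strand *Abcb6* overlaps *Gm29253*, *Hebp1* overlaps *Gm34391* and *Hmox2* overlaps *Gm15859*, so their FPKM can include reads of those. *Slc48a1* and *Flvcr1* overlap genes on the opposite strand only, and *Hebp1* and *Hmox2* also overlap such genes. Whether the FPKM values took the strand into account is not given, so reads of those genes could be included too.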

How the data were processed

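RNA of whole kidney from 12 mice (4 control, 4 CKD, 4 CKD+Fe) was sequenced from stranded mRNA libraries with single-end reads of 50 cycles. The submitters' processing notes name bcl2fastq 2.19, STAR 2.5.2, Cufflinks 2.1.1 and GRCm38, and the annotation is not given in the sources used here. The authors deposited FPKM, 1 value per gene and mouse, already scaled by the authors to each library, so read depth is unknown and no counting interval is given. FPKM summed to 503437.9 to 707843.2 per mouse. The 30 values marked as failed, in 17 genes, were treated as missing. No per-mouse column was left unmapped. The study's methods state DESeq2 on counts with a cutoff of 0.5, and counts were not used here.

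Genes reaching 1 FPKM in 4 or more mice (13148) were fitted as log2(FPKM + 1) with limma 3.58.1 (R 4.3.3; all 12 mice, variance trend, two-sided), with Benjamini-Hochberg adjustment over all genes tested and a threshold of 0.05. Log2 differences are on that scale, which understates changes of low genes. Single values and ratios within a mouse used the exact two-sided permutation test of 4 against 4 (scipy 1.17.1). The fit was tested on simulated data, and the permutation test on small fixed sets of values with a known outcome. Mice of a group are taken as separate animals, as their labels give each its own number.

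The 10 genes and the lists were chosen with earlier results of these data known. The 10 genes are all named. Of the other pathway genes, those of the synthesis steps and the 3 largest changes in each direction in CKD are named, and *Nfe2l2* and *Bach1* were added after their values were seen. A few items that these rules select are not reported here, though the counts over lists include them. Alternatives were a pseudocount of 0.1, no filter or a mean of at least 5 FPKM, quantile normalization, fits of 2 groups alone, library quality weights, rescaling by median ratios, no variance trend, a threshold of 0.5, and leaving out each mouse. Leaving out the 3 mice that stood apart together was chosen after seeing the data. Positions are those of the deposited table, whose rows overlapped the same gene of GENCODE M21 (GRCm38) in 99.9% of 21810 matches. Promoter sequences are from RefSeq (GRCm38.p6), matched by symbol for 7 of the 10 genes.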

Additional observations from a re-analysis of the deposited data

Results flagged for a closer look

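Within groups of 4 mice, 39 sets of values (the 10 genes, the 3 ratios, in 3 groups) were searched for a mouse set far from its group by Dixon's test of the gap to the nearest neighbor against the whole range, which chance alone gives in about 1 of 20 groups. *Slc48a1* of control mouse 4 was at 80.06 FPKM, under 97.95 to 100.2 in the other controls. *Alad* of CKD mouse 3 was at 63.14 FPKM, above 36.56 to 39.0 in the other CKD mice. The *Alad* to *Fech* ratio of the same mouse was 2.628, against 0.9251 to 1.144. CKD mouse 3 was also the mouse with the most genes at least 2-fold from the rest of its group, 806.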

How the results depend on the processing

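FPKM are relative within a mouse, and 4 mice a group limit the precision; depth in reads is unknown. *Flvcr1* was higher and *Hebp1*, *Abcb6*, *Alad* and *Blvra* were lower in CKD in every fit run, including those without each mouse. Of the 10 genes, 4 to 6 were lower and 1 higher in CKD without each mouse. Library weights or a threshold of 0.5 gave 1 of the 10 genes and 1 of the other pathway genes higher in CKD+Fe against CKD, in place of 0. In CKD+Fe against control, 1 of the 10 was higher, in place of 2, without a filter, after rescaling and after quantile normalization (1 to 2 without each mouse), and rescaling gave 7 lower in place of 4. For the other pathway genes in CKD, both rescaling and quantile normalization gave 6 higher and rescaling 20 lower, and in CKD+Fe against control quantile normalization gave 7 higher and rescaling 17 lower, each in place of 11 (13 for the lower genes in CKD). Testing without a filter ended the calls of *Fech* in CKD (adjusted p = 0.0557, limma) and of *Alad* (0.0566) and *Blvrb* in CKD+Fe against control, fitting 2 groups alone ended that of *Slc48a1* in CKD, and *Fech* was called lower in CKD+Fe against control without control mouse 3, after rescaling, with weights and without the 3 mice that stood apart. The cause was not tested.

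Small differences changed sign. In CKD+Fe against control, that of *Slc48a1* became -0.58 after rescaling, -0.026 with library weights, -0.05 without control mouse 4, -0.042 without CKD+Fe mouse 1 (-0.05 to 0.089 over all mice left out in turn) and -0.01 without the 3 mice that stood apart; that of *Hmox1* (0.08) became -0.52, -0.047 after quantile normalization, -0.41, -0.23 without control mouse 3, -0.08 without control mouse 4 and -0.29 without the 3 mice (-0.233 to 0.328 in turn). *Flvcr1* in CKD+Fe against CKD was -0.072 without CKD mouse 3 (up to 0.282). *Hmox2* was 0.015 in CKD against control without CKD mouse 4 (down to -0.152), and 0.017 with weights, 0.048 without CKD mouse 3 (down to -0.119) and 0.019 without the 3 mice in CKD+Fe against CKD. *Blvrb* in CKD was -0.38 after rescaling and -0.20 after quantile normalization.

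Without each mouse, the *Hmox1* to *Hmox2* log2 ratio ran from -0.13 to 0.40 in CKD+Fe against control, and that of *Alad* to *Fech* from -0.53 to 0.056 in CKD against control, from -0.50 to 0.031 in CKD+Fe against control and from -0.30 to 0.30 in CKD+Fe against CKD; 3 against 4 mice cannot go under an exact permutation p of 0.0571. *Alad* to *Fech* was 0.056 (CKD) and 0.031 (CKD+Fe against control) and *Hmox1* to *Hmox2* -0.13 (CKD+Fe against control) without control mouse 3, and *Alad* to *Fech* in CKD+Fe against CKD was 0.30 without CKD mouse 3 and 0.01, 0.02 and 0.18 without CKD+Fe mouse 2, 3 and 4. No paired analysis was possible because the labels give the groups no shared replicate numbers.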
